A study of Mus musculus with 18 samples.

Results

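This account follows 10 genes that mark neutrophils and mast cells through mouse liver development. They are Mpo, Elane, Prtn3 and Ctsg of the primary granule, S100a8 and S100a9 of calprotectin, Ngp, Camp and Ltf of the secondary granule, and Cpa3 of mast cells. A probe set was a member when the array's annotation gave it exactly 1 of these symbols or its older alias, and each gene had 1 such probe set. The members are thus 10 of the 45101 probe sets of the series, and 10 of the 18193 genes that the array names singly.

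Neutrophils build their stores in order. Promyelocytes fill primary (azurophil) granules with myeloperoxidase and with the serine proteases neutrophil elastase, proteinase 3 and cathepsin G, while later myelocytes fill secondary (specific) granules with lactoferrin and the cathelicidin peptide. Calprotectin is the S100A8 and S100A9 pair, which fills the cytosol of neutrophils and is also made by monocytes. Mast cells store carboxypeptidase A3 beside chymases and tryptases, and Cpa3 is also transcribed in early blood progenitors. The liver is the main blood-forming organ of the midgestation embryo and gives up that role to bone marrow around birth.

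All samples came from CD-1 mice, an outbred stock, with no genetic change or drug named. Embryonic liver was taken daily from 10.5 to 14.5 and again at 16.5 days post conception (dpc, also written as day), with 2 arrays per stage. Normal liver of female mice of 10 weeks gave 2 arrays, and the embryo left after removing the liver gave 1 array each at the first 3 of these ages and at 14.5 dpc, making 18 in all. Each embryonic sample pooled at least 5 embryos, so embryos of different progress share an array, and every value is for whole tissue. In such bulk tissue, fewer cells of a type and less RNA per cell cannot be told apart. The labels number biological replicates but name no litters, and a p-value here speaks only of the spread between such samples. Values are the authors' probe set intensities on a linear scale, and levels are compared between arrays, never between genes. Intensities summed over a list of genes are carried by its brightest probe sets.

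Some arrays stood apart. The 10 listed heart muscle markers summed to 24357 and 14713 on the 10.5 dpc liver arrays and to 3710 and 11408 at 12.5 dpc, against 405 to 1384 on the other liver arrays. The first 10.5 dpc liver array also had a Gapdh 3′ to 5′ signal ratio of 2.82, against 0.744 to 0.886 on the other liver arrays. The 99th percentile of intensity was 1319 and 2249 on the adult liver arrays, against 2448 to 2881 on the embryonic liver arrays. No value below 0 was found on the 4 rest-of-embryo arrays, whereas each liver array held 1216 to 1535. Tissue and form of processing therefore cannot be told apart in the comparison of liver with the rest of the embryo.

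Some members are neighbours on a chromosome, and the sequence before the starts of 6 of them is given first because both adjacent pairs are compared below. Elane and Prtn3 are adjacent protein-coding genes on chromosome 10, and S100a8 and S100a9 are adjacent on chromosome 3. Ngp, Camp and Ltf share chromosome 9, with 8 protein-coding genes between Camp and Ngp and 20 between Ngp and Ltf. The 6 sequences show both adjacent pairs and the secondary granule genes in which a C/EBP match was found. Each is the 250 bases before the RefSeq start on GRCm38.p6, written 5′ to 3′ on the gene's own strand. Capitals mark each match to a C/EBP motif (TTGCNNAA) or to an ETS or PU.1 motif (GGAAGT) on either strand.
Elane (chr10:79886062-79886311, plus strand): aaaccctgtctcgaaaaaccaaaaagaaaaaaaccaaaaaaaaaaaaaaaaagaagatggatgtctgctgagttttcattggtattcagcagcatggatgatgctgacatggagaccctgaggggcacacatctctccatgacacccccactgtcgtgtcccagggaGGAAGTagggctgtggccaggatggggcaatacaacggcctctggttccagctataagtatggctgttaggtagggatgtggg
Prtn3 (chr10:79879417-79879666, plus strand): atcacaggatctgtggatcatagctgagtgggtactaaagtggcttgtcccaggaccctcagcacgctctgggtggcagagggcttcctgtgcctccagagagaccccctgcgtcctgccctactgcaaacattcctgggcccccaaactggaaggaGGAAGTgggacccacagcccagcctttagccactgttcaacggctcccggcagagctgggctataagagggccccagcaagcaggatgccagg
S100a8 (chr3:90668821-90669070, plus strand): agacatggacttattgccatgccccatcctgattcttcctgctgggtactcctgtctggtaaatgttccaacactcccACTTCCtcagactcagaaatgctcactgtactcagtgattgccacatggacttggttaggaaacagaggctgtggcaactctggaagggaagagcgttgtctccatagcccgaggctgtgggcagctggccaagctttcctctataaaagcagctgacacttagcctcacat
S100a9 (chr3:90695722-90695971, minus strand): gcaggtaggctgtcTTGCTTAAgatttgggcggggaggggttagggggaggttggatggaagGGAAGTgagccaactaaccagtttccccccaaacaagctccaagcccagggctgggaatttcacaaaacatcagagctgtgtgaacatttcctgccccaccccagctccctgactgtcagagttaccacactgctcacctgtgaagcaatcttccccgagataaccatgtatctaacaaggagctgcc
Ngp (chr9:110419558-110419807, plus strand): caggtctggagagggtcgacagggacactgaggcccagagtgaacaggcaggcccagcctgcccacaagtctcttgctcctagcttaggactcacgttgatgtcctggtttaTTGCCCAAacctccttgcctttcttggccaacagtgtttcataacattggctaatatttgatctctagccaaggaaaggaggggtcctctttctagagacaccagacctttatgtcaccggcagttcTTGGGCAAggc
Ltf (chr9:111019042-111019291, plus strand): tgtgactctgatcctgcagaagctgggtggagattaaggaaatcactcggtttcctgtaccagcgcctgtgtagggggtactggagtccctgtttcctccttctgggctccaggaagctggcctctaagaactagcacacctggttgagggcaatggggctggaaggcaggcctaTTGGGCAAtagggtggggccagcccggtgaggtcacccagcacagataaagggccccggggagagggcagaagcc

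A window of 300 bases, reaching 50 past the start, was searched for 5 motifs on both strands in the 32851 promoters of the table, and all 10 members had one. GGAAGT was found in 6 members, namely all 4 primary granule genes and both calprotectin genes, and in 23.8% of all promoters. TTGCNNAA was found in S100a9, Ltf and, with 2 matches, Ngp, and in 10.8% of all promoters. The MYB motif TAACNG was found in Mpo and Elane (23.3% of all promoters), and the GATA motif AGATAA in S100a9, Ltf and Cpa3 (11.2%). TATAAA was found in Ctsg, S100a8, S100a9 and Cpa3 (13.6%), and no 2 of the matches in a member overlapped. Camp held none of the 5. A match is a run of letters and says nothing of binding.

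The 9 neutrophil genes rose in liver between 10.5 and 16.5 dpc and Cpa3 fell. Across the 14127 genes tested on the 14 liver arrays, 17.4% were called in this comparison, 10.4% higher and 6.98% lower. A gene was called when limma gave an adjusted p below 0.05 together with a change of 1 log2 or more. The median difference of the 10 members was 2.71 log2, against 0.05 over all genes tested. By class the median was 2.71 for the primary granule genes, 6.32 for calprotectin and 1.91 for the secondary granule genes. All 10 members passed the filter on dim probe sets, Cpa3 only through 1 array at 10.5 and 1 at 11.5 dpc. No 10.5 dpc array of Elane, Prtn3, S100a8, S100a9 or Camp lay above its cut-off of 77.9, so the filter favoured their rise. With no filter their rises to 16.5 dpc stayed called (limma adjusted p from 1.25e-07 for S100a9 to 4.31e-05 for Elane).

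**Figure D1:**
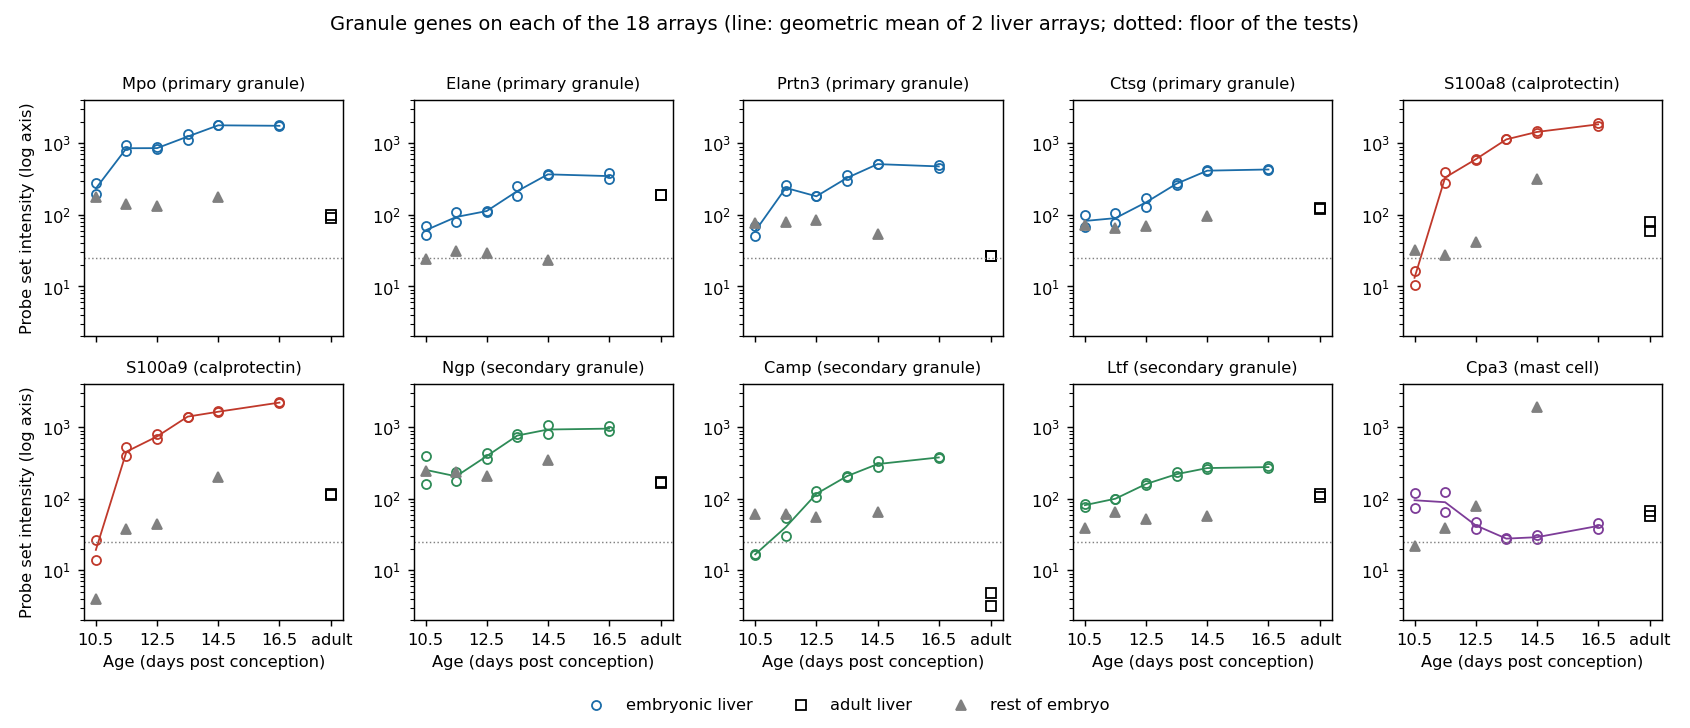
Intensity of each of the 10 genes on all 18 arrays, on a log axis, against age in days post conception, with adult liver at the right. Circles are embryonic liver arrays joined through the geometric mean of each pair, squares adult liver and triangles the rest of the embryo. The dotted line is the floor of 24.8 used in the tests. S100a8 climbs from 10.6 and 16.5 at 10.5 dpc to 1747 and 1945 at 16.5 dpc, and the Cpa3 triangle at 14.5 dpc stands at 1903.

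Mpo encodes myeloperoxidase, which makes hypochlorous acid in the phagosome. Its intensity was 196 and 280 on the 10.5 dpc arrays, 773 and 944 on day 11.5, 826 and 890 on day 12.5, 1372 and 1128 on day 13.5, 1786 and 1788 on day 14.5, then 1799 and 1721 on day 16.5. The 14.5 and 16.5 dpc arrays were the 4 highest, and the earliest pair lay below every other embryonic liver array. Mpo was 7.51-fold higher at 16.5 than at 10.5 dpc (2.91 log2, SE 0.17, limma adjusted p = 7.38e-07). Prtn3 encodes proteinase 3, a serine protease. It read 50.3 and 70.2 on day 10.5, 216 and 263 on day 11.5, 183 and 181 on day 12.5, 365 and 296 on day 13.5, 517 and 508 on day 14.5, then 457 and 497 on day 16.5. Its course followed that of Mpo, and the root mean square difference between their centred log2 profiles over the 14 liver arrays was 0.14. Prtn3 was 8.02-fold higher at 16.5 than at 10.5 dpc (3.00 log2, SE 0.18, limma adjusted p = 7.49e-07).

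Elane, for neutrophil elastase, and Ctsg, for cathepsin G, are the other primary granule proteases. Elane read 69.8 and 53.1 on day 10.5, 109 and 80.4 on day 11.5, 112 and 115 on day 12.5, 250 and 185 on day 13.5, 379 and 360 on day 14.5, then 318 and 382 on day 16.5. Ctsg read 99.0 and 68.4 on day 10.5, 77.3 and 105 on day 11.5, 173 and 130 on day 12.5, 281 and 266 on day 13.5, 422 and 408 on day 14.5, then 422 and 441 on day 16.5. For Ctsg the 10.5 and 11.5 dpc arrays overlapped, whereas for both genes every array from 13.5 dpc on lay above every earlier one. Between 10.5 and 16.5 dpc Elane rose by 2.52 log2 (SE 0.20, limma adjusted p = 5.7e-06). Ctsg rose by 2.39 log2 (SE 0.21, limma adjusted p = 9.11e-06).

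Calprotectin binds zinc, manganese and calcium and starves microbes of metal. S100a8 read 10.6 and 16.5 on day 10.5, both under the floor, then 395 and 280 on day 11.5, 588 and 610 on day 12.5, 1134 and 1138 on day 13.5, 1408 and 1480 on day 14.5, then 1747 and 1945 on day 16.5. Each stage lay wholly above the one before it. S100a8 was at least 74.3-fold higher at 16.5 than at 10.5 dpc (limma adjusted p = 1.51e-08), a bound because both early arrays were at the floor. S100a9 read 14.1 and 26.5 on day 10.5, 524 and 397 on day 11.5, 681 and 812 on day 12.5, 1412 and 1404 on day 13.5, 1663 and 1635 on day 14.5, then 2148 and 2278 on day 16.5. Its stages were also separate from one another, and its difference was 6.43 log2 (SE 0.14, limma adjusted p = 3.46e-09) with 1 of the 2 early arrays at the floor. Arrays at the floor share 1 value, so the SE and adjusted p of both genes are too small. The S100a8 probe set is of the type that Affymetrix marks as shared between transcripts, so part of its signal may come from a related one.

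Among the secondary granule genes, Camp encodes the cathelicidin peptide that disrupts bacterial membranes. It read 17.0 and 16.5 on day 10.5, 54.0 and 30.0 on day 11.5, 106 and 130 on day 12.5, 204 and 211 on day 13.5, 277 and 338 on day 14.5, then 378 and 380 on day 16.5. Every stage lay above the one before, and the rise to 16.5 dpc was at least 15.3-fold (limma adjusted p = 9.33e-07), since both early arrays were under the floor. Ltf encodes lactoferrin, which binds iron. It read 77.9 and 85.5 on day 10.5, 101 and 100 on day 11.5, 155 and 167 on day 12.5, 234 and 209 on day 13.5, 264 and 274 on day 14.5, then 289 and 267 on day 16.5. The Ltf groups separated at each step up to 14.5 dpc, and Ltf was 3.4-fold higher at 16.5 than at 10.5 dpc (1.77 log2, SE 0.13, limma adjusted p = 3.03e-06).

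Ngp encodes neutrophilic granule protein, which is related to the cathelicidins. It read 398 and 162 on day 10.5, 240 and 177 on day 11.5, 434 and 360 on day 12.5, 797 and 736 on day 13.5, 801 and 1080 on day 14.5, then 874 and 1048 on day 16.5. The pair at 10.5 dpc differed widely, and its higher value came from the array with the high Gapdh ratio. Ngp rose by 1.91 log2 from 10.5 to 16.5 dpc (SE 0.34, limma adjusted p = 0.00119), by 2.56 log2 without the array of the high Gapdh ratio and by 1.27 (1.265) without the other 10.5 dpc array, called both times.

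Cpa3 went the other way in liver, at low intensity. It read 74.6 and 122 on day 10.5, 64.5 and 125 on day 11.5, 37.8 and 48.1 on day 12.5, 28.5 and 27.1 on day 13.5, 27.2 and 31.1 on day 14.5, then 46.6 and 37.4 on day 16.5. The 4 arrays of 10.5 and 11.5 dpc lay above all later ones, and those of 13.5 and 14.5 dpc lay just above the floor of 24.8. Cpa3 fell by 1.19 log2 from 10.5 to 16.5 dpc (SE 0.32, limma adjusted p = 0.0133). The filter, a reading above 77.9 on 2 arrays, was met only by 1 array of each of the first 2 stages, and so favoured a fall, here and in each later stage set against 10.5 dpc. With no filter the call at 16.5 dpc stood (limma adjusted p = 0.0256). It was lost without the second 16.5 dpc array (-1.03 log2, limma adjusted p = 0.0887) and with a floor at the 40th percentile (-0.80 log2), and without the second 10.5 or the second 11.5 dpc array Cpa3 did not pass the filter.

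The heart markers on the 10.5 dpc arrays moved with this comparison, falling in 9 of 10 tested genes with a median of -4.26 log2. Set against 11.5 dpc, whose heart markers summed to 540 and 521, and leaving out the arrays of 10.5 and 12.5 dpc, the rise to 16.5 dpc was 1.04 log2 for Mpo, 1.90 for Elane, 2.26 for Ctsg, 2.47 for S100a8 and 2.28 for S100a9. It was 2.21 log2 for Ngp, 3.23 for Camp and 1.47 for Ltf, and all 8 of these were called. The number of all genes called with this base is given in the closing section, without direction. No share over all genes therefore stands beside these calls. Prtn3 fell just short, at 0.998 log2 (limma adjusted p = 0.00192), and Cpa3 could not be tested in this subset.

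The genes were first called at different stages. Relative to 10.5 dpc, Mpo, Prtn3, S100a8 and S100a9 were already called higher at 11.5 dpc, where 5.66% of all genes were called and 2.97% were higher. Mpo rose by 1.87 log2 (SE 0.17, limma adjusted p = 9.78e-05) and Prtn3 by 2.00 (SE 0.18, limma adjusted p = 7.89e-05). S100a8 was at least 13.4-fold higher (limma adjusted p = 2.05e-06) and S100a9 rose by 4.15 log2 (SE 0.14, limma adjusted p = 1.58e-07). No 10.5 dpc array of Prtn3, S100a8 or S100a9 passed the filter, which favoured these rises. With no filter they stayed called (limma adjusted p = 0.000392, 1.61e-05 and 1.31e-06 in that order). By 11.5 dpc Mpo had covered 64.2% and Prtn3 66.8% of their log2 change to 16.5 dpc. For S100a8 and S100a9 no such share is given, since the size of their change depends on the floor.

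The other 5 neutrophil genes were not called at 11.5 dpc. Elane differed by 0.62 log2 (95% interval 0.17 to 1.07, limma adjusted p = 0.073), and Ctsg by 0.13 (-0.33 to 0.59, limma adjusted p = 0.719). Ngp differed by -0.30 log2 (-1.05 to 0.45, limma adjusted p = 0.602) and Ltf by 0.30 (0.01 to 0.59, limma adjusted p = 0.162). Camp differed by 0.70 log2 (0.16 to 1.23, limma adjusted p = 0.0862), and without the second 11.5 dpc array it was called at 1.12. The sign of 3 of the small differences depended on 1 array. Ngp was 0.35 log2 higher without the first 10.5 dpc array, and Ctsg stood at -0.135 log2 without the second and at -0.09 without the second 11.5 dpc array. Cpa3 differed by -0.09 log2, or 0.38 without the first 11.5 dpc array. No test compared the timing of 1 gene with that of another.

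Camp was first called higher at 12.5 dpc, at least 4.73-fold above 10.5 dpc (limma adjusted p = 8.81e-05), at a stage where 7.01% of all genes were higher and 3.65% lower. Cpa3 was first called lower there, at -1.16 log2 (limma adjusted p = 0.0215, or 0.039 with no filter), or -0.99 and not called without the first 12.5 dpc array. Its filter limit given above holds for this and the later stages, and with a floor at the 40th percentile it was called at none of them. Elane (0.90 log2), Ctsg (0.87 log2) and Ltf (0.98 log2) fell short of 1 log2 at 12.5 dpc, and leaving out 1 array brought each past it. Those arrays were the first 10.5 dpc array for Elane (1.09 log2) and for Ctsg (1.13), the second 12.5 dpc array for Ctsg (1.07), and the second 10.5 (1.05) or first 12.5 dpc array (1.03) for Ltf. Ngp stood at 0.64 log2, and ran from -0.01 without the second 10.5 dpc array to 1.29, called, without the first.

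At 13.5 dpc all 9 neutrophil genes were called higher than at 10.5 dpc, beside 8.88% of all genes, with 14.7% called in all. Elane had risen by 1.82 log2 (limma adjusted p = 6.9e-05), Ctsg by 1.73 (limma adjusted p = 0.000107), Ngp by 1.59 (limma adjusted p = 0.00456) and Ltf by 1.44 (limma adjusted p = 1.65e-05). Ngp was not called there without the second 10.5 dpc array (0.94 log2). The filter favoured the rises of Elane, Prtn3, S100a8, S100a9 and Camp at 13.5 and 14.5 dpc too. With no filter they stayed called (limma adjusted p at most 0.000315, for Elane at 13.5 dpc). Cpa3 differed from its first stage by -1.78 log2 at 13.5 dpc (limma adjusted p = 0.00152), beside 5.78% of all genes lower, and by -1.715 log2 at 14.5 dpc (limma adjusted p = 0.00168). At 14.5 dpc, where 16.8% of all genes were called, 10.4% higher and 6.47% lower, the calls of the 10 members were as at 13.5 dpc. By then the 6 neutrophil genes with no array at the floor had covered between 97.4% (Ltf) and 104% (Prtn3) of their log2 change.

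**Figure D2:**
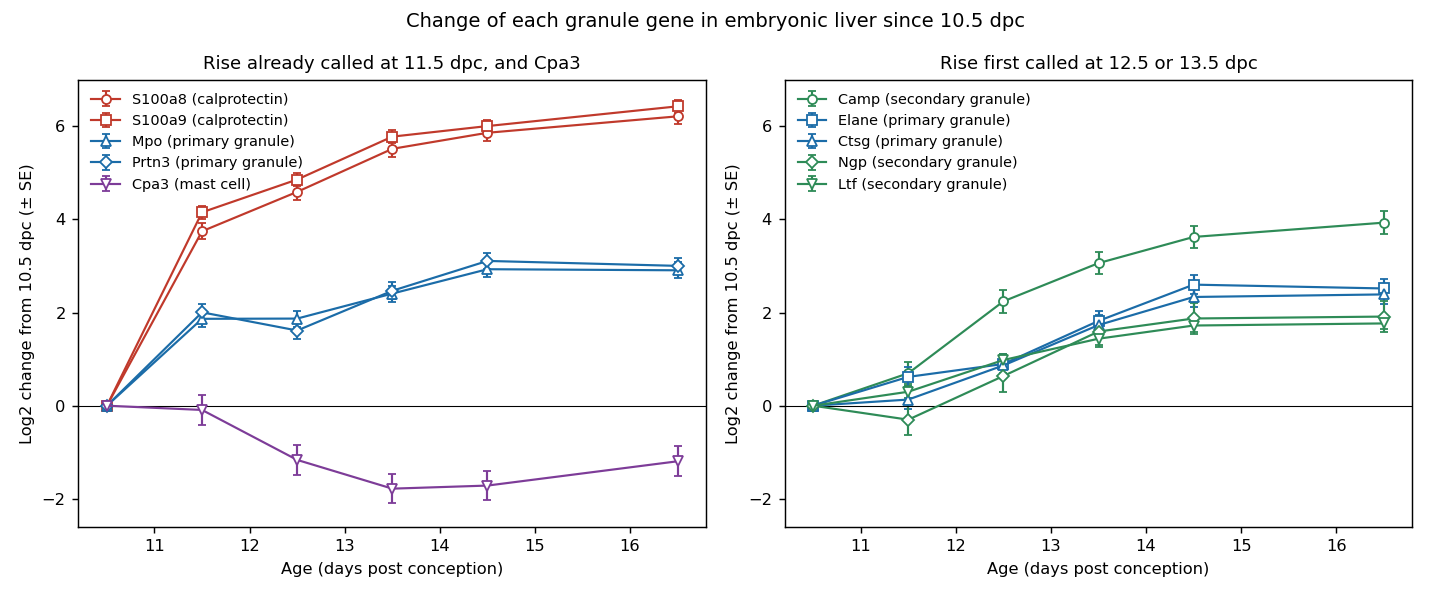
Log2 change of each gene in embryonic liver relative to 10.5 dpc, against age in days post conception, with bars of 1 SE from the limma fit of the 14 liver arrays. The left panel holds the 4 genes called higher by 11.5 dpc, where Mpo stands at 1.87 and S100a9 at 4.15, with Cpa3. The right panel holds the 5 genes first called higher at 12.5 or 13.5 dpc, among them Ctsg, at 0.13 at 11.5 dpc and 2.39 at 16.5 dpc.

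Between neighbouring stages after 11.5 dpc, Camp alone of the members was called. It rose by 1.54 log2 from 11.5 to 12.5 dpc (SE 0.24, limma adjusted p = 0.00366), where 2.95% of all genes were called and 2.68% were higher. The filter, passed by no 11.5 dpc array of Camp, favoured this rise, and with no filter it stayed called (limma adjusted p = 0.011). In the same step S100a8 rose by 0.85 log2 (limma adjusted p = 0.0169), S100a9 by 0.70 (limma adjusted p = 0.0145) and Ltf by 0.68 (limma adjusted p = 0.0115), past the p threshold but under 1 log2. Without the first 11.5 dpc array S100a8 was called, at 1.10 log2, and so was Cpa3, at -1.55 log2 against -1.07 with it. Prtn3 differed by -0.39 log2 in that step (95% interval -0.79 to 0.01) and Mpo by 0.01 (-0.38 to 0.39). The sign for Mpo turned under median centring (-0.06) and quantile normalization (-0.04). The heart markers rose in 6 of 10 tested genes in this step, and their part in these differences was not tested.

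From 12.5 to 13.5 dpc 0.0849% of all genes were called, 0.0212% higher and 0.0637% lower, and none of the members. In this step 4 of 10 heart markers fell, with a median of -2.68 log2, and their part in the members' differences was not tested. The differences of the members were all upward except for Cpa3, with medians of 0.86 log2 for the primary granule genes, 0.92 for calprotectin and 0.82 for the secondary granule genes. S100a9 passed the p threshold here (0.92 log2, limma adjusted p = 0.046) but not 1 log2. From 13.5 to 14.5 dpc the medians were 0.62, 0.29 and 0.28 log2 in the same order, and 0.0566% of all genes were called, upward in 0.0425% and downward in 0.0142%. From 14.5 to 16.5 dpc they were -0.05, 0.39 and 0.05 log2, with 0.0354% called, 0.00708% higher and 0.0283% lower. No member was called in either step. For Mpo, Elane, Ctsg, Ngp and Ltf the arrays of 14.5 and 16.5 dpc overlapped, and those of Prtn3 lay lower at 16.5 dpc (-0.11 log2), whereas the 16.5 dpc arrays of S100a8, S100a9 and Camp lay above both 14.5 dpc arrays, by 0.35, 0.42 and 0.31 log2 and without a call. How often the arrays of neighbouring stages separate over all genes was not counted, at this step or the others. The separations at this step are therefore not read as a further rise or fall.

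Over the whole embryonic course the pairs on 1 chromosome did not all run alike. S100a8 and S100a9 differed by a root mean square of 0.14 log2 between their centred profiles on the 12 embryonic liver arrays, and Mpo and Prtn3, on different chromosomes, by 0.15. The adjacent Elane and Prtn3 differed by 0.47, and Elane and Ctsg, which lie apart, by 0.28. These figures describe 1 probe set per gene and carry no test.

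Of 21 tested genes of other neutrophil granule and cytosol products, 14 rose between 10.5 and 16.5 dpc, none fell, and the median was 1.45 log2. Stfa2l1, of the stefin family of cysteine protease inhibitors, rose by 3.46 log2 (SE 0.19, limma adjusted p = 4.8e-07) with 1 early array at the floor. Olfm4, which marks a subset of neutrophils, was at least 10.8-fold higher (limma adjusted p = 4.4e-07). Of 13 tested granulocyte regulators and receptors, 2 rose and none fell, beside 10.4% higher and 6.98% lower over all genes, so the share that rose was near the background. They were Cebpa, the transcription factor of granulocyte commitment that hepatocytes also express (1.59 log2, limma adjusted p = 3.09e-05), and the Fc receptor gene Fcgr3 (1.07 log2, limma adjusted p = 0.000396). Against 11.5 dpc Cebpa rose by 0.60 and Fcgr3 by 0.45 log2, neither called, and Fcgr3 also fell under 1 log2 with median centring (0.96) and quantile normalization (0.94). No 10.5 dpc array of Stfa2l1, Olfm4 or Fcgr3 passed the filter, which favoured their rise from 10.5 dpc. With no filter that rise stayed called (limma adjusted p = 7.24e-06, 6.04e-06 and 0.000662 in that order).

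At 11.5 dpc 2.97% of all genes were called higher than at 10.5 dpc. Of the 21 granule genes 5 were already called higher, with a median of 0.43 log2 over the list. They included Srgn, for the granule proteoglycan serglycin (2.32 log2, limma adjusted p = 0.000133), and Olfm4 (at least 4.84-fold, limma adjusted p = 4.57e-05). The filter favoured the Olfm4 rise here too, and with no filter it stayed called (limma adjusted p = 0.000224). Of the regulators Myb was called, at 1.34 log2 (limma adjusted p = 0.00117), or 0.997 and not called without the first 10.5 dpc array. From 11.5 to 12.5 dpc 2.68% of all genes were called higher. Stfa3, another stefin, alone of the granule list was called in that step (1.31 log2, limma adjusted p = 0.00804). It lost the call without the second 11.5 (0.96 log2) or the first 12.5 dpc array (1.30 log2).

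Other lists moved to different degrees between 10.5 and 16.5 dpc, beside 10.4% of all genes higher and 6.98% lower. The pan-leukocyte list had 6 of 10 tested genes higher (median 1.11 log2), the monocyte and macrophage list 11 of 17 (1.77 log2) and the red cell list 8 of 8 (3.37 log2). Of hepatocyte genes 7 of 8 were higher (2.40 log2) and of megakaryocyte genes 3 of 9 (0.65 log2), with none lower. Of blood stem and progenitor genes 2 of 8 were higher and 2 lower (median -0.07 log2), and of 6 B lymphoid genes none was called (-0.05 log2). The summed intensity of the 10 members went from 1008 and 901 at 10.5 dpc to 8479 and 8995 at 16.5 dpc. That of the pan-leukocyte genes went from 1325 and 1661 to 2810 and 2814, and that of the monocyte and macrophage genes from 1031 and 1077 to 4343 and 4367. The part of monocytes in the calprotectin signal was not tested.

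Of 9 other mast cell and basophil genes tested, 2 were higher at 16.5 than at 10.5 dpc and none was called lower, with a median of 0.32 log2. Over all genes 10.4% were higher and 6.98% lower. Mcpt4, a chymase of mast cells, read 160 and 109 on day 10.5, 244 and 140 on day 11.5, 642 and 624 on day 12.5, 700 and 221 on day 13.5, 741 and 411 on day 14.5, then 931 and 947 on day 16.5. Its replicates at 13.5 dpc lay far apart, and its rise to 16.5 dpc was 2.83 log2 (SE 0.47, limma adjusted p = 0.000785). Fcer1g, the shared signalling chain of Fc receptors on many myeloid cells, rose by 1.15 log2 (SE 0.13, limma adjusted p = 4.64e-05), but by 0.07 and without a call against 11.5 dpc. Cma1, another mast cell chymase, stayed between 34.6 and 67.1 on all 12 embryonic liver arrays. Of 5 tested eosinophil genes Prg2, for major basic protein, was called, with a rise of 3.78 log2 (SE 0.27, limma adjusted p = 2.32e-06) and 1 early array at the floor. Against 11.5 dpc it stood at 0.94 log2. No 10.5 dpc array of Prg2 passed the filter, which favoured its rise from 10.5 dpc. With no filter that rise stayed called (limma adjusted p = 2.97e-05).

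In adult liver 8 of the 10 members were lower than at 16.5 dpc, beside 22.8% of all genes lower and 10.3% higher (33.1% called). The median over the members was -3.21 log2, against -0.24 over all genes tested. Mpo read 91.6 and 100 in the adult and was 18.4-fold lower (-4.20 log2, SE 0.17, limma adjusted p = 9.15e-09). Prtn3 read 26.5 and 27.0, just above the floor, and was 17.8-fold lower (limma adjusted p = 1.3e-08). Ctsg read 121 and 123 and was 3.54-fold lower (limma adjusted p = 2.3e-05). For these 3 primary granule genes the adult arrays lay wholly below those of 16.5 dpc.

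Elane was not called in the adult. It read 187 and 188 in adult liver, above both 10.5, both 11.5 and both 12.5 dpc arrays, and the difference from 16.5 dpc was -0.89 log2 (95% interval -1.34 to -0.44, limma adjusted p = 0.00331). That passes the p threshold but not 1 log2, and without the first 16.5 dpc array it was called, at -1.02 log2. It was smaller with median centring (-0.84 log2) and quantile normalization (-0.62 log2, limma adjusted p = 0.0272), and not called with either. Over the 14 liver arrays, adult included, the profiles of Elane and its neighbour Prtn3 differed by a root mean square of 1.27 log2, with no test of that difference.

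S100a8 read 59.7 and 79.9 in the adult, 26.7-fold below 16.5 dpc (limma adjusted p = 3.82e-09). S100a9 read 113 and 115, 19.4-fold below (limma adjusted p = 1.92e-09). Both calprotectin genes nevertheless lay above their 10.5 dpc arrays. Camp read 4.78 and 3.18, under the floor, and was at least 15.3-fold lower (limma adjusted p = 1.94e-07). Camp and Prtn3 passed the filter through embryonic arrays alone, which favoured a fall in the adult. With no filter both stayed called (limma adjusted p = 2.98e-06 for Camp and 2.46e-07 for Prtn3). Ngp read 166 and 174 and was 5.63-fold lower (limma adjusted p = 8.89e-05), and Ltf read 116 and 105 and was 2.53-fold lower (limma adjusted p = 6.7e-06). The adult values of Ltf, Elane and Ctsg also lay between those of the early and the late embryonic liver. Cpa3 read 57.9 and 68.6, above both 16.5 dpc arrays, with a difference of 0.59 log2 that was not called (95% interval -0.11 to 1.30, limma adjusted p = 0.14).

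**Figure D3:**
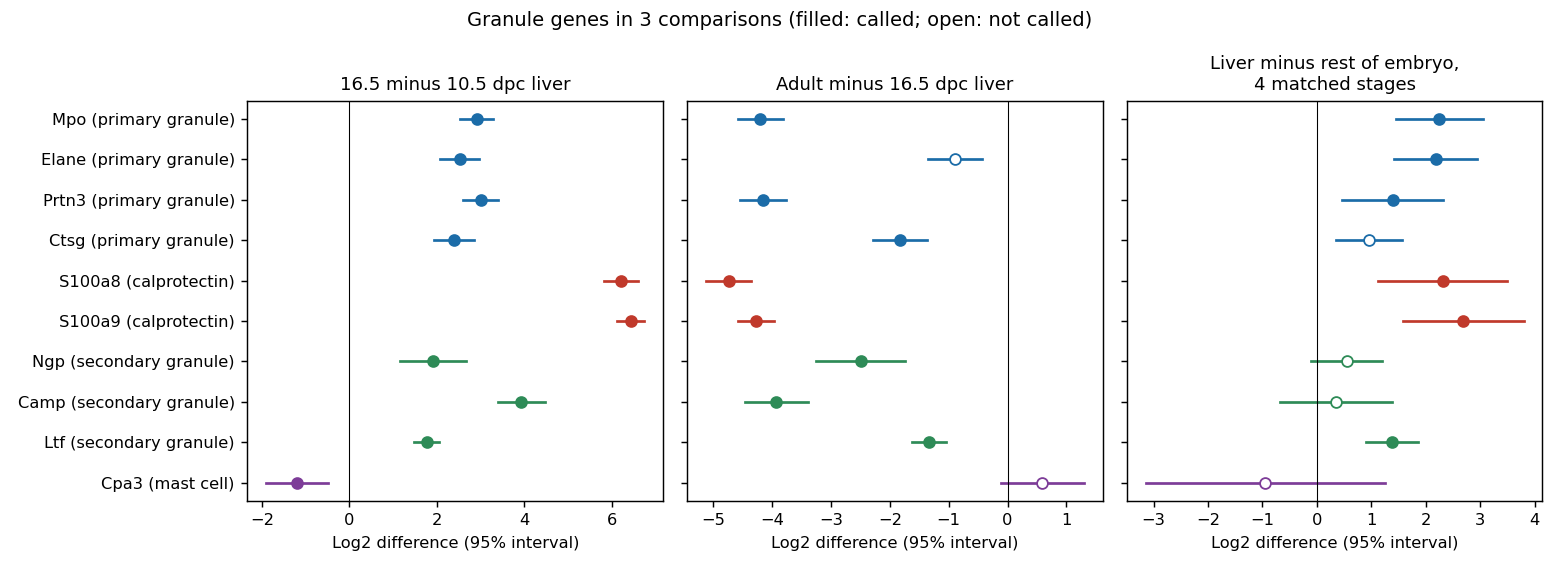
Log2 difference of each gene, with its 95% interval from limma, in 3 comparisons. Filled points were called and open points were not. In the left panel 9 points lie right of 0 and Cpa3 lies left of it at -1.19, in the middle panel 8 filled points lie left of 0, and in the right panel 6 filled points lie right of 0.

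The related lists were split in the adult, where 22.8% of all genes were lower and 10.3% higher than at 16.5 dpc. Of 21 other neutrophil granule genes 8 were lower and 4 higher, with a median of -0.75 log2. The higher ones included Hp, for haptoglobin (5.04 log2, SE 0.25, limma adjusted p = 3.4e-08), and Arg1, for arginase (4.05 log2, SE 0.38, limma adjusted p = 4.75e-06), both of which hepatocytes make. Among the 13 regulators Myb, a factor of immature blood cells, was at least 21.0-fold lower (limma adjusted p = 1.2e-08), and Cebpb rose by 1.58 log2 (limma adjusted p = 4.1e-05). Of the 9 mast cell and basophil genes 2 were lower, a share near that of all genes. They were Mcpt4, by 2.95 log2 (-2.95, limma adjusted p = 0.000295), and Kit, the stem cell factor receptor, by 2.64 (-2.64, limma adjusted p = 4.03e-07) with 1 adult array at the floor. Of 5 eosinophil genes Prg2 and Prg3 were lower. Myb, Kit and Prg2 passed the filter through embryonic arrays alone, which favoured a fall in the adult. With no filter they stayed called (limma adjusted p = 3.03e-07, 3.29e-06 and 1.66e-05 in that order). The pan-leukocyte list had 4 of 10 genes lower, with a summed intensity of 1479 and 1476 against 2810 and 2814 at 16.5 dpc. The red cell list had 8 of 8 lower (median -5.61 log2), the megakaryocyte list 5 of 9 (-2.00 log2) and the stem and progenitor list 4 of 8 (-0.98 log2), with none higher. Of 17 monocyte and macrophage genes 3 were higher and 1 lower. The members' own sum was 944 and 983.

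Against the rest of the embryo, over the 4 stages with both tissues, 6 members were higher in liver, beside 14% of the 14896 genes tested. In all, 65.1% were called and 51.2% were lower, and the median over all genes was -1.04 log2. The median over the members was 1.38 log2. Of the calls over all genes 21.4% were higher without scaling, 32.6% after median centring and 50.1% after quantile normalization, and the members called higher numbered 6, 7 and 8 in turn. Differences here are read against that shift.

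Mpo read 176, 144, 132 and 180 in the rest of the embryo in order of stage, below all 8 liver arrays of the matching stages. It was 2.25 log2 higher in liver (SE 0.36, limma adjusted p = 0.000135). Elane read 24.1, 31.4, 28.9 and 23.4, also below every liver array, and was 2.18 log2 higher in liver (SE 0.34, limma adjusted p = 0.000123), with 2 of the 4 arrays at the floor. Elane, Ltf and Camp passed the filter through liver arrays alone, which favours a higher liver, and S100a8, S100a9 and Ctsg also needed liver arrays to pass. With no filter the calls were the same (limma adjusted p = 0.000494 for Elane, 0.00039 for Ltf, 0.00548 for S100a8 and 0.00162 for S100a9). Prtn3 read 76.3, 78.6, 85.8 and 54.1, which overlapped the early liver, and was 1.39 log2 higher (SE 0.42, limma adjusted p = 0.00951), but 0.78 and not called without the 14.5 dpc rest-of-embryo array. Ctsg read 71.1, 66.2, 70.8 and 97.6 and differed by 0.96 log2 (SE 0.27, limma adjusted p = 0.00662), short of a call. It was called with median centring (1.35 log2), quantile normalization (1.46) and the replicate number as a block (1.03), and, at 1.04 to 1.21 log2, on leaving out the second 10.5 dpc liver array, the first 11.5 dpc liver array, or the 10.5 or the 11.5 dpc rest-of-embryo array.

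S100a8 read 31.9, 27.2, 42.4 and 321 in the rest of the embryo, and S100a9 3.94, 37.6, 44.5 and 201. For both the last array stood above the 3 earlier ones. S100a8 was 2.31 log2 higher in liver (SE 0.53, limma adjusted p = 0.0019) and S100a9 2.69 log2 higher (SE 0.50, limma adjusted p = 0.000435), with 2 S100a8 and 1 S100a9 liver arrays at the floor. At 10.5 dpc both S100a8 liver arrays lay below the rest of the embryo, and the ranges of the tissues overlapped for both genes. Ltf read 39.0, 66.4, 51.9 and 58.3 and was 1.38 log2 higher in liver (SE 0.22, limma adjusted p = 0.00012). Every liver array lay above these values for Ltf. Ngp read 247, 238, 209 and 343 and Camp 60.6, 60.9, 55.6 and 65.5, both overlapping liver. Ngp differed by 0.55 log2 (95% interval -0.11 to 1.21) and Camp by 0.35 (-0.67 to 1.38), without a call. Ngp was called at 1.46 log2 after quantile normalization, and the Camp difference turned to -0.27 without the 14.5 dpc rest-of-embryo array.

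Heart markers were present in the rest of the embryo, at a summed 14926 to 29158, as they were in liver at 10.5 and 12.5 dpc. With only the 11.5 and 14.5 dpc arrays, a choice made after seeing the data, the liver difference was 2.94 log2 for Mpo, 2.73 for Elane, 2.42 for Prtn3, 1.27 for Ctsg, 2.89 for S100a8, 3.32 for S100a9 and 1.40 for Ltf, all called. It was 0.62 log2 for Ngp, 0.81 for Camp and -2.42 for Cpa3, none called. With only the 12.5 and 14.5 dpc arrays all 10 members were called, Cpa3 lower in liver at -3.46 log2.

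Over all genes 14% were higher in liver and 51.2% lower. Of the related genes, 8 of 20 other neutrophil granule genes were higher in liver and none lower, led by Slpi, a protease inhibitor (2.34 log2, limma adjusted p = 5.74e-07), and Itgb2, the leukocyte integrin chain (1.92 log2, limma adjusted p = 2.44e-05, with overlap and 2 rest-of-embryo arrays at the floor). Of 14 regulators 5 were higher and 3 lower, with Runx1, a factor of blood formation, at 2.58 log2 (limma adjusted p = 1.64e-08) and the chemokine receptor gene Cxcr4 at -2.82 (limma adjusted p = 9.32e-08). Among 10 mast cell and basophil genes 2 were higher and 3 lower. The tryptase gene Tpsab1 stood at 2.93 log2 (limma adjusted p = 5.01e-08) with 3 rest-of-embryo arrays at the floor, and Gata2 at -2.40 (limma adjusted p = 1.26e-07). Of 5 eosinophil genes 3 were higher, with Prg3 at 3.35 log2 (limma adjusted p = 3.7e-08, 3 rest-of-embryo arrays at the floor) and Prg2 at 2.11 (limma adjusted p = 0.00144). The pan-leukocyte list had 3 of 10 higher and none lower. Itgb2, Runx1, Tpsab1, Prg3 and Prg2 passed the filter through liver arrays alone, which favours a higher liver. Cxcr4 passed it through rest-of-embryo arrays alone, which favours a lower liver. With no filter all of these stayed called (limma adjusted p at most 0.0042, for Prg2).

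The liver minus rest-of-embryo difference moved toward liver with stage for 6 neutrophil genes and away from it for Cpa3. For Prtn3 and Camp liver lay below the rest of the embryo at 10.5 dpc and above it at 14.5 dpc. A slope of the liver difference was called in 16.1% of the 14896 genes, 5.99% upward and 10.1% downward. It was 0.63 log2 per day for Mpo (SE 0.15, limma adjusted p = 0.0165), 0.66 for Elane (SE 0.11, limma adjusted p = 0.00329), 0.80 for Prtn3 (SE 0.14, limma adjusted p = 0.00449) and 0.49 for Ctsg (SE 0.10, limma adjusted p = 0.0102). Camp had 0.91 log2 per day (SE 0.13, limma adjusted p = 0.0021), Ltf 0.35 (SE 0.10, limma adjusted p = 0.0317) and Cpa3 -2.07 (SE 0.19, limma adjusted p = 0.000467). S100a8 (0.43), S100a9 (0.58) and Ngp (0.41 log2 per day) were not called.

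Single rest-of-embryo arrays decided many of these slopes. Without its 14.5 dpc array Elane (0.34), Prtn3 (0.72), Ctsg (0.44) and Ltf (0.28 log2 per day) lost the call, while S100a8 (2.09) and S100a9 (2.01) gained it. Without its 10.5 dpc array Mpo (0.26) and Prtn3 (0.62) lost it, S100a9 turned to -0.24, and S100a8 turned and was called at -0.53 log2 per day. Ltf also lost the call without either 14.5 dpc liver array (0.35 and 0.34), and Ngp gained it without the first 10.5 dpc liver array (0.53). Of 10 other mast cell and basophil genes 1 slope was upward and 2 downward, beside 5.99% upward and 10.1% downward over all genes. Mcpt4 had 0.61 log2 per day (SE 0.18, limma adjusted p = 0.0422), and of the 12 arrays left out in turn 7 ended the call (both 12.5 dpc liver arrays, the second of 10.5 and 11.5 dpc and the first of 14.5 dpc, and the 10.5 and 11.5 dpc rest-of-embryo arrays, at 0.39 to 0.61 log2 per day). The Mcpt4 slope also lost its call with no filter (limma adjusted p = 0.0786). Cma1 had -0.88 (SE 0.18, limma adjusted p = 0.00885), having passed the filter through 2 rest-of-embryo arrays alone. Camp and Cpa3 kept their calls on leaving out any 1 array, at 0.88 to 1.18 and -2.43 to -1.42 log2 per day. These sizes depend on the floor, since both 10.5 dpc liver arrays of Camp and the 10.5 dpc rest-of-embryo array of Cpa3 lay under it.

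Cpa3 stood out in the rest of the embryo at 14.5 dpc. In order of stage it read 21.9, 39.4, 79.1 and 1903 there, so that the last array was 24.1-fold above the highest earlier one. With 1 array per stage this has no replicate check. In the liver of the same stage Cpa3 read 27.2 and 31.1. The mean tissue difference over the 4 stages was -0.95 log2 (95% interval -3.15 to 1.25, limma adjusted p = 0.382), and 0.75 without the 14.5 dpc rest-of-embryo array. Of 12699 genes above the filter on at least 2 of these 4 arrays, 4.84% stood 1 log2 or more above the highest earlier array at 14.5 dpc and 0.756% as far below the lowest. Of the 4 members above that filter, Cpa3 was the one past 1 log2. S100a8 and S100a9, below the filter, stood 7.57-fold and 4.51-fold above their highest earlier arrays.

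Of the 9 mast cell and basophil genes above the filter, 2 passed 1 log2, beside 4.84% of all genes above it. Cma1, whose chymase is stored with carboxypeptidase A3, read 57.2, 81.6, 52.7 and 804, 9.86-fold above its highest earlier array. Fcer1g read 71.9, 78.3, 70.3 and 247, a 3.16-fold step. Kit, at 508 against at most 347, and the tryptase gene Tpsb2, at 200 (199.75) against at most 117, stood higher by less than 1 log2. Fcer1a and Ms4a2, the other chains of the IgE receptor, were under the floor there, and Mcpt4 read 93.2 against at most 121. The step was not limited to mast cell genes. Of the granulocyte granule list 4 of 10 genes passed 1 log2, of the regulators 4 of 10, of the hepatocyte list 3 of 5 and of the heart list 3 of 10, and the leukocyte gene Ptprc went from at most 52.5 to 114. The part of these in the Cpa3 value was not tested.

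**Figure D4:**
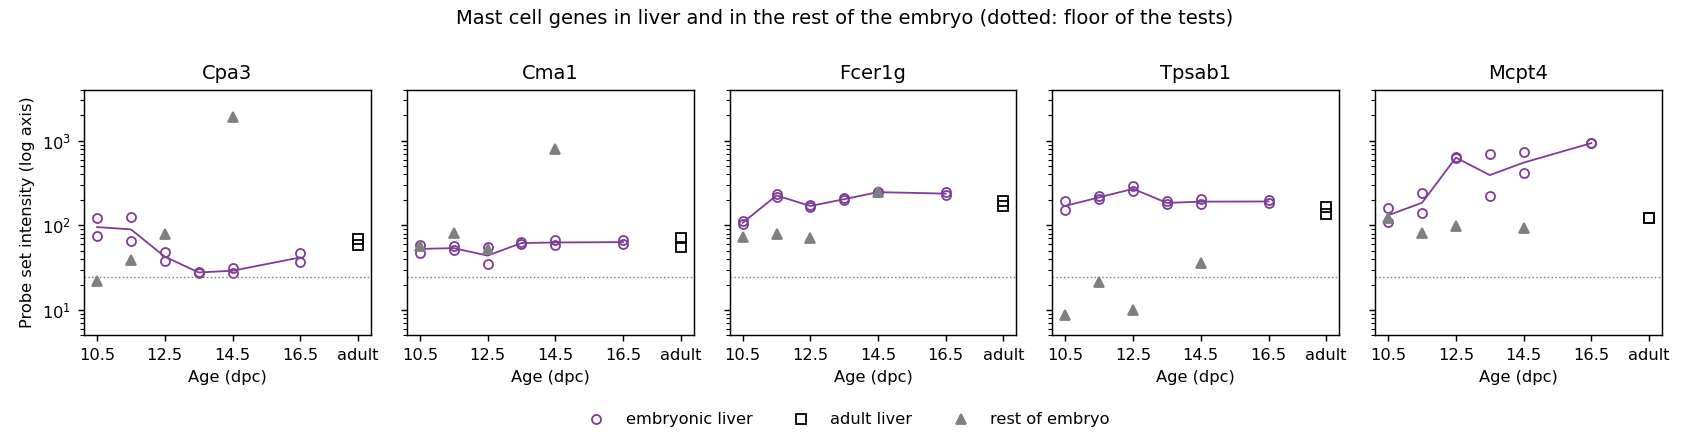
Intensity of Cpa3 and of 4 other mast cell genes on all 18 arrays, on a log axis, against age in days post conception, with adult liver at the right. Circles are embryonic liver, squares adult liver and triangles the rest of the embryo, with 1 array per stage. The triangles of Cpa3 (1903), Cma1 (804) and Fcer1g (247) at 14.5 dpc stand above the earlier ones, whereas Mcpt4 climbs in liver to 931 and 947.

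Genes with the most similar liver profiles were sought among all tested genes other than the 10 members, with predicted genes passed over. Genes of the other lists were eligible. The measure was the root mean square difference of centred log2 values over the 14 liver arrays. Nearest to the mean primary granule profile were Slc36a2 (0.30), Abca7 (0.33), Mpp1 (0.34), Tent5a (0.34) and Miox (0.34). Nearest to calprotectin were Cables1 (0.57), Nxpe2 (0.65), Cldn13 (0.69), Redrum (0.72) and the adult globin gene Hbb-b2 (0.73), at greater distances than for the other classes. Nearest to the secondary granule profile were Zfp420 (0.26), Btg2 (0.27), Miox (0.27), Mpp1 (0.28) and Marchf2 (0.29). Nearest to Cpa3 were Sox11 (0.30), Celf6 (0.33), Nrp1 (0.34), Id2 (0.38) and Cnpy2 (0.39). Points of a profile share the arrays and their tissue makeup.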

How the data were processed

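Total RNA from each tissue was made into biotin-labelled cRNA for Affymetrix arrays, per the labels' protocols. The values are probe set intensities, which the authors deposited as 1 table of 18 arrays. Their summarisation and scaling are not given in the sources used here. Groups came from the source names, because age entries of the later liver samples repeat 10.5 dpc and titles of rest-of-embryo samples call them liver. For adult samples the treatment text tells of a resection, but source and title give normal baseline liver.

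Of 45101 probe sets, 64 were controls and 34945 had 1 symbol in the array annotation, giving 18193 genes, each read from its probe set with the highest mean. Values below a floor of 24.8 (the 20th percentile) were set to it before log2 was taken, without further scaling. Genes above 77.9 (the 50th percentile) on at least 2 arrays of a fit were tested, 14127 in the liver fit and 14896 in the tissue fits. Differences were fitted with limma 3.58.1 in R 4.3.3 (lmFit, eBayes, trend = TRUE) as two-sided tests, and p-values were adjusted by Benjamini-Hochberg over every gene tested in that comparison. The liver fit had a mean for each of 7 groups and 7 residual degrees of freedom, and the tissue fits had stage as a factor. Slopes were called from 0.25 log2 per day on, at the same adjusted p of 0.05 as differences of 1 log2. Where all arrays of 1 group lay at the floor, the fold is a lower bound. The number of arrays and the signal over background limit the precision.

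On simulated data of the same layout, 89% of changes of 1.5 log2 and 99% of changes of 3 log2 between 16.5 and 10.5 dpc were called, and 64% of slopes of 0.5 log2 per day. Differences between replicates 1 and 2 correlated between liver groups at -0.354 to 0.254, with 5 of 21 pairs of groups above 0.1, so the numbers were not taken to pair samples. The members and lists were chosen with earlier results of these data known. All members are named. From each of the 4 lists of granulocyte and mast cell genes, up to 2 called genes with the largest difference per comparison were eligible, and of other genes the 5 nearest to a class profile. Cma1, Tpsb2, Kit, Fcer1a, Ms4a2 and Ptprc in the rest of the embryo, and Cma1 in liver, were added after their values were seen. Promoter sequences are from RefSeq, build GRCm38.p6, and all 10 members matched by symbol. Alternatives varied the floor, filter, scaling, probe set choice, intensity trend, replicate block, arrays and stages.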

Additional observations from a re-analysis of the deposited data

Results flagged for a closer look

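The change of the liver minus rest-of-embryo difference with stage was tested as an interaction, and it was called for 7 of the 10 members, beside 16.1% of the 14896 genes tested (5.99% upward and 10.1% downward). It was 0.63 log2 per day for Mpo, 0.66 for Elane, 0.80 for Prtn3, 0.49 for Ctsg, 0.91 for Camp and 0.35 for Ltf, so that the difference moved toward liver with age. For Cpa3 it was -2.07 log2 per day, so that it moved toward the rest of the embryo. Each slope rests on 1 array per stage of the rest of the embryo. Without its 14.5 dpc array Elane, Prtn3, Ctsg and Ltf were no longer called, and without its 10.5 dpc array Mpo and Prtn3 were not.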

How the results depend on the processing

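Of 236 alternative values of the counts of genes and members called, 230 stayed within 1.5 times. Genes called in liver against the rest of the embryo went from 9700 to 5940 with quantile normalization, and those of 16.5 dpc against the early liver from 2457 to 1221 with 11.5 dpc as the base. Members called in liver against the rest of the embryo went from 6 to 10 with the 12.5 and 14.5 dpc arrays only. The share of all genes called with those arrays is not given here. Leaving out each array in turn gave 972 to 2179 genes over the successive stages (1241 with all, 2179 without the second 10.5 dpc array) and 792 to 2485 slopes (2399 with all, 792 without the 14.5 and 1400 without the 10.5 dpc rest-of-embryo array).

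Of 3649 alternative values of single genes, 3544 kept direction and call, 57 lost the call, 27 gained it and 21 turned. Mpo from 11.5 to 12.5 dpc turned to -0.059 log2 with median centring and -0.043 with quantile normalization, and from 14.5 to 16.5 dpc median centring turned Ngp to -0.004 and Ltf to -0.001. Over single left-out arrays the other turns lay within these ranges of log2 differences. From 10.5 to 11.5 dpc they were -0.95 to 0.35 (Ngp), -0.135 to 0.40 (Ctsg) and -0.45 to 0.38 (Cpa3), from 11.5 to 12.5 dpc -0.139 to 0.15 (Mpo), from 10.5 to 12.5 dpc -0.012 to 1.29 (Ngp) and from 13.5 to 14.5 dpc -0.032 to 0.17 (Cpa3). From 14.5 to 16.5 dpc they were -0.17 to 0.26 (Ngp), -0.21 to 0.049 (Elane), -0.012 to 0.10 (Ltf) and -0.055 to 0.009 (Mpo). For liver against the rest of the embryo they were -0.27 to 0.90 (Camp) and -1.91 to 0.75 (Cpa3), and for the slopes -0.53 to 2.09 (S100a8) and -0.24 to 2.01 log2 per day (S100a9). The cause of these was not tested. With a floor at the 40th percentile the difference of Cpa3 from 10.5 dpc was -0.80 log2 and not called at 12.5, 13.5, 14.5 or 16.5 dpc, and with a floor at the 10th percentile Camp was called at 11.5 dpc (1.27 log2).

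With the replicate number as a block, members called numbered 10 (16.5 against 10.5 dpc), 5 (successive stages), 8 (adult), 7 (tissue) and 7 (slope), and genes called 2448, 1212, 4684, 9750 and 2215. Of the members, the block changed the call of Ctsg against the rest of the embryo alone, and of the list genes it ended the call of the Prg2 slope (0.73 log2 per day). The Prg2 slope also lost its call with no filter (limma adjusted p = 0.0869) and for 10 of the 12 arrays left out in turn. Members at the floor have no measured change below it.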
